A study of Mus musculus with 5 samples.

Results

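The genes described here are those of mouse collagen chains, the proteins that build fibrils, filaments and sheets outside cells and, in a few cases, span the cell membrane. Members are all genes of the count table whose symbol has the form Col, number, a, number, without Col17a1, which gave 43 of 56691 genes. They fall into 11 fibrillar genes, 6 basement membrane genes of type IV and 26 genes of other types. RNA sequencing covered 5 libraries of keratinocytes from back skin of mice aged 28 days. There were 3 libraries of cells sorted for GFP, labelled Lrig1 positive in genotype and epidermal stem cells in type (GFP 1, 2 and 3), and 2 libraries of the entire population without that sort, labelled WT and epidermal basal cells (bulk 1 and 2). The labels used here name neither the reporter construct nor the gates. They do not state that each library stems from its own animal, so p-values measure the spread between these libraries, which may be technical. Libraries held 56829330 to 105887450 counts, and a single count in GFP 3 was 0.0107 CPM (counts-per-million).

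Collagen chains wind around each other in a triple helix, and several types combine chains of more than one gene. Fibrillar collagens such as types I, III and V make the fibres of the dermis and come mainly from fibroblasts. Type IV collagen forms the sheet of the basement membrane under the epidermis, type VII forms the fibrils that anchor this sheet to the dermis, and keratinocytes make both.

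Markers of other cell types differed between sorted and bulk libraries. Keratinocyte genes were abundant in all, as labelled: the 6 basal genes, Krt5 and Krt14 among them, summed to 30210 to 40060 CPM in GFP-sorted libraries and 19820 to 22300 CPM in bulk libraries. Markers of hair matrix and inner root sheath (12 of 12 called lower), immune cells (8 of 8) and melanocytes (6 of 7) were lower in sorted cells. They summed to 49.1 to 52.6, 19.9 to 38.0 and 10.7 to 17.4 CPM in sorted libraries, against 1533 and 3008, 276 and 275, and 286 and 119 CPM in bulk 1 and 2. The 15 fibroblast genes summed to 225 to 239 CPM in sorted and 250 and 270 CPM in bulk libraries, most of it Thy1. The other 14 summed to 51.8, 54.4 and 43.9 CPM in GFP 1, 2 and 3, against 124 and 130 CPM in bulk 1 and 2. Of the lists with fewer calls, 3 of 7 suprabasal, 5 of 13 dermal papilla and sheath, 2 of 8 endothelial and mural and 1 of 5 Schwann cell genes tested were called lower. No gene of any of these lists was called higher. Of all genes tested, 5.14% were called lower and 0.145% higher. The part of these cells in the collagen differences was not tested, and in such libraries fewer cells of a type and less RNA per cell cannot be told apart. Xist, which is transcribed from an inactive X chromosome, had 53714 counts in GFP 3 and at most 8 in any other library. No bulk library thus matched GFP 3 in Xist, and the part of this difference in the collagen values was not tested.

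Most collagen counts in both groups came from 9 genes, among them Col4a1, Col4a2, Col4a5, Col4a6 and Col7a1. With the group term no collagen gene was called higher in sorted cells. The 43 members together held 1241, 1236 and 1348 CPM in GFP 1, 2 and 3, against 1022 and 1222 CPM in bulk 1 and 2. CPM values are counts per library total after scaling by edgeR's TMM factor. Of the 43 members, 35 passed the filter on low counts and 2 of these, Col13a1 and Col27a1, were called lower in sorted cells (edgeR quasi-likelihood test, Benjamini-Hochberg adjusted p under 0.05 over 18583 genes). That is 5.71% of the members tested, beside 5.14% of all genes tested that were called lower, and 0 of the members beside 0.145% of all genes called higher. At an unadjusted p under 0.05, 7 members were lower and 2 higher, beside 11.6% and 4.28% of all genes. The DESeq2 Wald test called 4 members lower and 0 higher, beside 7.06% and 1.01% of all genes. limma-voom called 2 lower and 0 higher, beside 5.32% and 0.199%. The median log2 change over the 35 members was 0.07, against 0.05 over all genes tested.

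**Figure D1:**
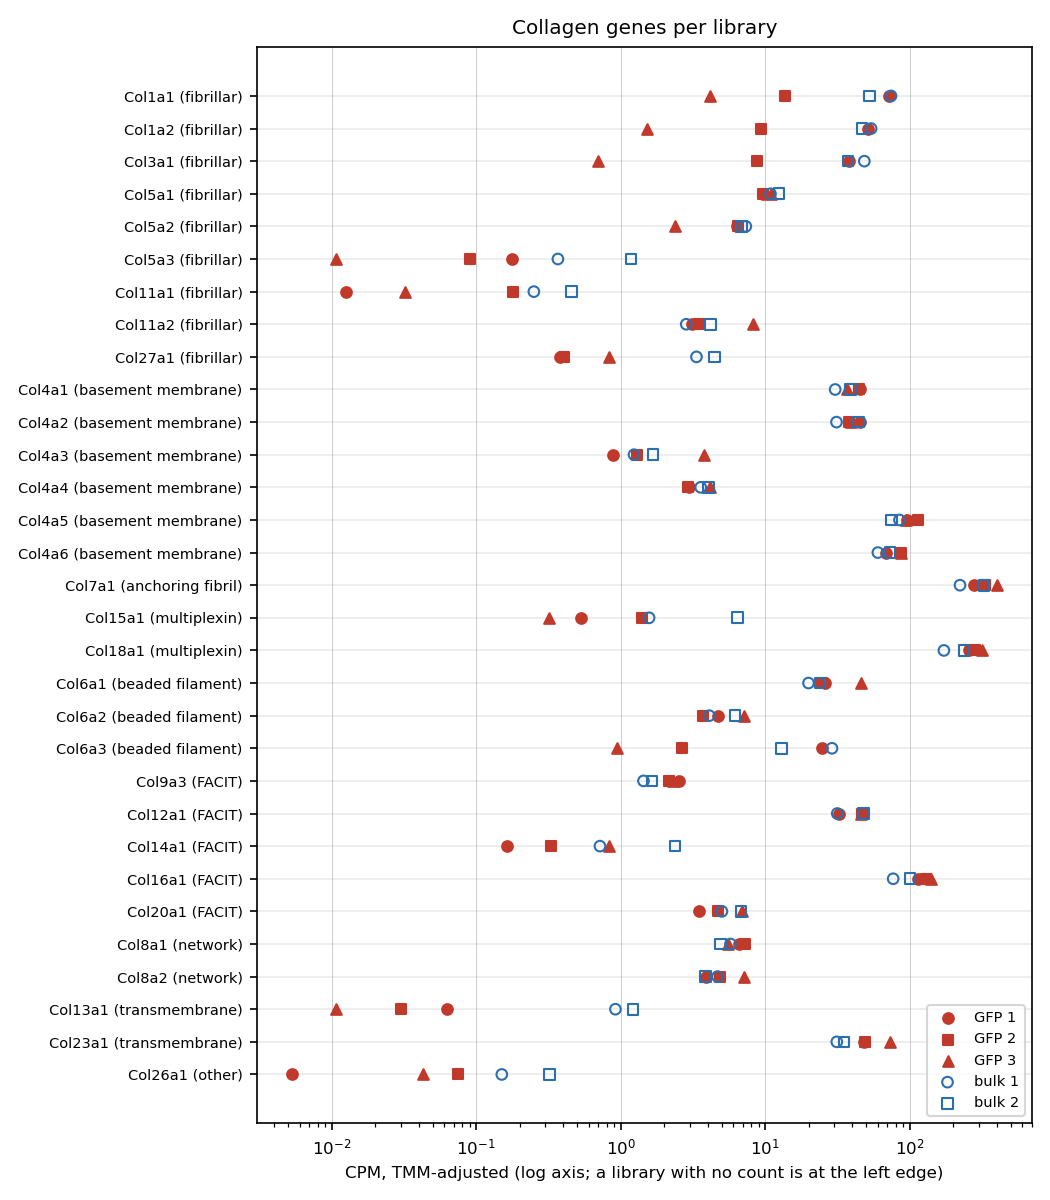
Level of each of 31 collagen genes in each library, in TMM-adjusted CPM on a log axis, with GFP-sorted libraries as filled red and bulk libraries as open blue symbols (Col26a1 had no count in GFP 1 and is drawn at the left edge there). Type I, III and VI alpha 3 genes spread widely among the 3 sorted libraries, while Col7a1, Col18a1 and the main type IV genes spread far less. All sorted libraries lie above bulk for Col18a1 and Col4a5.

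GFP 1 and bulk 1 share the title number 4143, and GFP 2 and bulk 2 share 4145. These numbers were taken to name the animal. The labels do not say so, and the genotype label differs within a number, Lrig1 positive for GFP and WT for bulk, so the pairing is an assumption. With that number as a block, 12 members were called lower and 6 higher, or 34.3% and 17.1% of those tested, beside 19.7% and 16.4% of all genes. The blocked comparison rests on 2 pairs, since GFP 3 has no partner, and leaves a single residual degree of freedom. Its p-values therefore lean on spread estimated across genes more than on how far the 2 pairs of a gene differ. With no filter on low counts, 11 of 42 members were called lower (26.2%, beside 5.06% of all genes) and 1 higher (2.38%, beside 0.786%). The tested members had a median transcript length of 6048 bases and a median GC content of 56.4%, against 2915 bases and 49.9% over all tested genes with a length. With a trend on both properties removed from the counts and no block, 2 members were called lower and 5 higher, beside 5.38% and 0.613% of all genes, and with trend and block together 11 and 12, beside 16.4% of all genes in each direction.

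**Figure D2:**
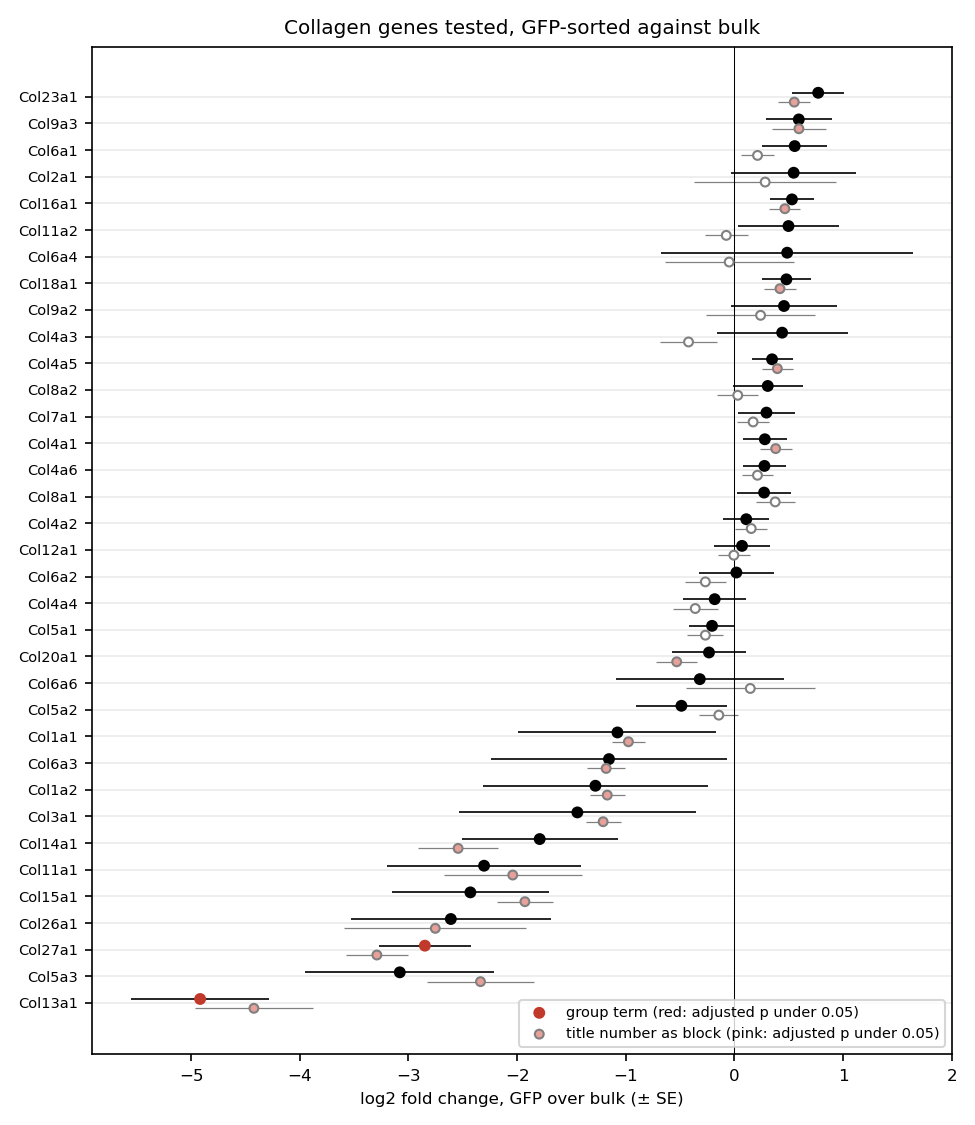
Log2 fold change of GFP-sorted over bulk libraries with its SE for the 35 tested collagen genes, from the fit with a group term (black, red where called) and with the title number as a block (white, pink where called). Col13a1 and Col27a1 alone are called with the group term, while the block also calls type I and III genes, whose SE is then far smaller.

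Col13a1 and Col27a1 were low in bulk and lower still in sorted cells. Col13a1 (ENSMUSG00000058806.16) encodes a transmembrane collagen of cell adhesion sites. It had 5, 2 and 1 counts in GFP 1, 2 and 3, against 55 and 136 counts in bulk 1 and 2. In CPM this was 0.0347 ± 0.0266 in sorted and 1.07 ± 0.213 in bulk cells (mean ± SD, n = 3 and 2), a log2 change of -4.92 ± 0.63 (SE; edgeR adjusted p = 0.00355). Every sorted library lay far below both bulk libraries. Col13a1 was called in each of the 14 settings that tested it, with an adjusted p of at most 0.0336, and did not pass a minimum of 1 CPM in 2 libraries.

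Col27a1 (ENSMUSG00000045672.16) encodes a fibrillar collagen known from cartilage. It was at 0.380, 0.407 and 0.825 CPM in GFP 1, 2 and 3, against 3.34 and 4.46 CPM in bulk 1 and 2. The groups did not overlap, and the log2 change was -2.85 ± 0.43 (edgeR adjusted p = 0.0071). Without bulk 2 it was -2.64 and not called (adjusted p = 0.0579), in a fit with 1 bulk library whose spread is assumed to be like that of the others.

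Promoter windows of both genes are shown as the sequence beside the called differences. They run from 250 bases before to 50 bases after the RefSeq start (GRCm38.p6, a different build from the GRCm39 of the counts). Capitals mark motifs found on either strand. The letters GGGCGG, a GC box, occur in 35.7% of the 32851 mouse windows. The letters CCAAT occur in 37.4% of them. The TATA box letters, TATAAA, occur in 13.6%. Of the 37 windows found for collagen genes, 23 held GGGCGG (62.2%), 12 held CCAAT (32.4%) and 4 held TATAAA (10.8%). No motifs overlap in the windows shown, and a match of letters is not a binding site. The Col13a1 window (chr10:61979059-61979358, minus strand) has a TATA box far from the start, and the Col27a1 window (chr4:63215162-63215461, plus strand) has 2 GC boxes.
Col13a1: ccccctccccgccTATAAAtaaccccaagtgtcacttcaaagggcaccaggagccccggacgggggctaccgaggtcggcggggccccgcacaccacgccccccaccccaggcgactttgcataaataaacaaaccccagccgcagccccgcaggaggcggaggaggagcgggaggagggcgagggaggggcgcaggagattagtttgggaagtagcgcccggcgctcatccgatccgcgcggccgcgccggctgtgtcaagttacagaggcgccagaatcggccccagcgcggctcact
Col27a1: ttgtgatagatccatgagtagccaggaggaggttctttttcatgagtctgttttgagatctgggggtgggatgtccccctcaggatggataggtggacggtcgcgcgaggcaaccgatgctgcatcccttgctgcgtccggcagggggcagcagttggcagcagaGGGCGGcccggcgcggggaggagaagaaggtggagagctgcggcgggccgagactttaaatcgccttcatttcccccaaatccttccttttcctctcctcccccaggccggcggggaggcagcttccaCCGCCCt

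Among the other fibrillar genes, the chains of dermal fibres varied more between sorted libraries than between the groups. Col1a1 and Col1a2 encode the chains of type I collagen, the main fibre of dermis, and Col3a1 that of type III, which is laid down with it. Col1a1 was at 72.4, 13.6 and 4.17 CPM in GFP 1, 2 and 3, against 74.2 and 52.6 CPM in bulk 1 and 2. Col1a2 was at 51.4, 9.38 and 1.53 CPM in GFP 1, 2 and 3, against 54.0 and 46.8 CPM in bulk 1 and 2. Col3a1 was at 37.9, 8.73 and 0.696 CPM in GFP 1, 2 and 3, against 48.5 and 37.4 CPM in bulk 1 and 2. In each of them GFP 1 lay close to bulk and GFP 2 and GFP 3 well below it. The highest sorted library exceeded the lowest 17.4-fold for Col1a1, 33.6-fold for Col1a2 and 54.4-fold for Col3a1, while the 2 bulk libraries differed 1.16-fold to 1.41-fold.

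None of the type I and III genes was called with the group term over all libraries and the filter on low counts. Their log2 changes were -1.08 ± 0.91, -1.28 ± 1.03 and -1.45 ± 1.09 for Col1a1, Col1a2 and Col3a1 (edgeR adjusted p = 0.629, 0.61 and 0.583). Within title numbers, Col1a1 in GFP 1 was 0.976 times its level in bulk 1, and in GFP 2 it was 0.259 times its level in bulk 2. For Col1a2 these ratios were 0.95 and 0.20, and for Col3a1 0.78 and 0.23. The block called all of them lower, at -0.98, -1.17 and -1.21 (edgeR adjusted p = 5.71e-09, 1.22e-11 and 1.56e-12). Such small p-values do not reflect how far the pairs of these genes differed. With no block and no filter on low counts, Col1a1, Col1a2 and Col3a1 were called lower too (edgeR adjusted p = 1.63e-04, 3.91e-06 and 1.34e-07). Without GFP 1 the changes were -2.84, -3.22 and -3.20, of which Col1a1 and Col1a2 were called and Col3a1 was not (edgeR adjusted p = 0.0235, 0.0494 and 0.133). Without GFP 1, 5 members in all were called lower (14.3%, beside 4.13% of all genes) and 0 higher (beside 0.0663%).

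Fibroblast list genes did not all follow the same order of libraries. Dpt, a matrix protein of dermis, was at 0.367, 0.106 and 0.0107 CPM in GFP 1, 2 and 3, against 0.869 and 0.493 CPM in bulk 1 and 2. Lum, which binds collagen fibrils, was at 0.329, 0.0453 and 0.0214 CPM in GFP 1, 2 and 3, against 0.786 and 0.233 CPM in bulk 1 and 2, and Mfap4 had no count in GFP 3. Like type I collagen, these were highest of the sorted libraries in GFP 1. A single count in GFP 3 was 0.0107 CPM, so the order of these genes rests on few counts. Pdgfra, a receptor of fibroblasts, was highest in GFP 2, at 0.279, 0.362 and 0.107 CPM in GFP 1, 2 and 3, against 0.886 and 2.32 CPM in bulk 1 and 2. Fbln2, a matrix protein, overlapped between the groups, at 9.68, 20.6 and 15.6 CPM in GFP 1, 2 and 3, against 9.36 and 14.97 CPM in bulk 1 and 2. Dcn, a proteoglycan of collagen fibres, had the order of type I collagen among the sorted libraries, with a smaller spread. It was at 5.90, 3.98 and 3.03 CPM in GFP 1, 2 and 3, against 17.5 and 13.7 CPM in bulk 1 and 2. Dcn in GFP 1 thus lay well below both bulk libraries, and Dpt in GFP 1 also lay below both. Type I collagen in GFP 1 lay close to bulk. Of the 13 list genes tested 4 were called lower, Vim, Fap, Dcn and Pdgfra, beside 5.14% of all genes. The list median was -2.07. Dcn was called in 14 of 15 settings (highest edgeR adjusted p 0.0894) and Pdgfra in 10 of 14. The part of fibroblasts in the type I and III values was not tested.

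**Figure D3:**
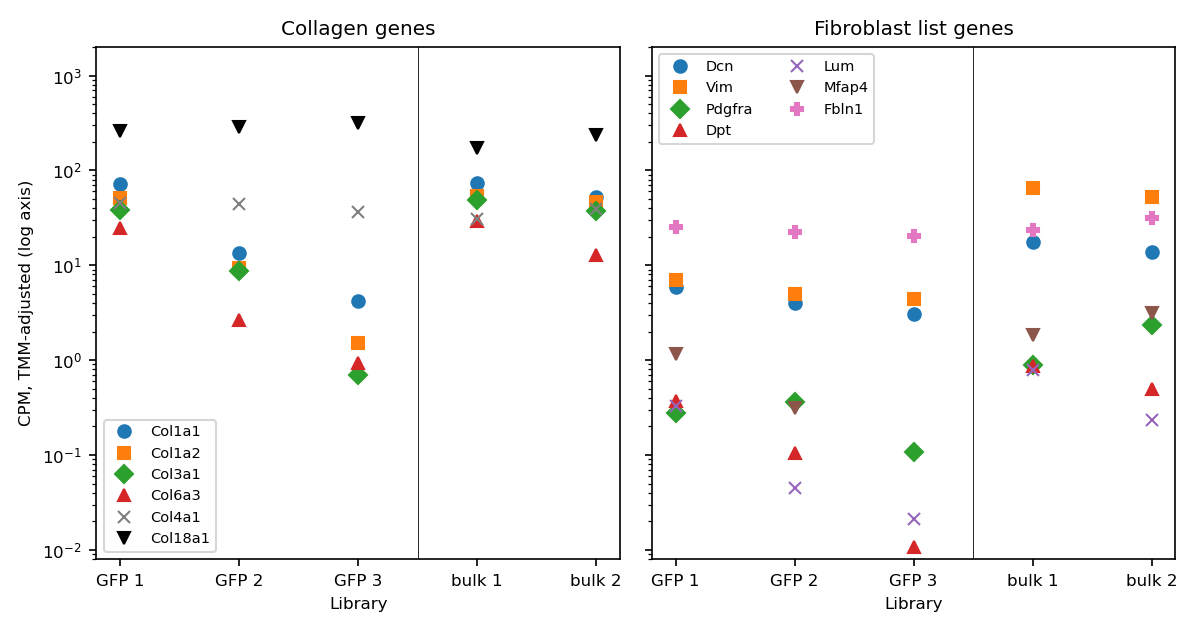
Level per library in TMM-adjusted CPM on a log axis, for 6 collagen genes on the left and 7 fibroblast list genes on the right. Col1a1, Col1a2, Col3a1 and Col6a3 drop by library among the sorted cells, as Dpt, Lum and Mfap4 do (Mfap4 had no count in GFP 3 and is not drawn there), while Col4a1, Col18a1 and Fbln1 stay near level. Dpt and Lum rest on few counts in GFP 3.

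The promoter windows of 2 of these genes are shown because their levels ordered the libraries alike. The Col1a2 window (chr6:4505368-4505667, plus strand) holds 2 GC boxes and 2 CCAAT boxes, one of them on the other strand. The Col3a1 window (chr1:45311288-45311587, plus strand) holds a single TATA box, well before the start, and none of the other letters searched.
Col1a2: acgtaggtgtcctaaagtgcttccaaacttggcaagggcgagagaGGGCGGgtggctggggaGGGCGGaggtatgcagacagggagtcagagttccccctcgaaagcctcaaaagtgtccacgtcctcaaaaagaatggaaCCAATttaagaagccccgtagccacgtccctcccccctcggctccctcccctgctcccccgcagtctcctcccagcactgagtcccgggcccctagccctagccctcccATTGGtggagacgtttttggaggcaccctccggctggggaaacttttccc
Col3a1: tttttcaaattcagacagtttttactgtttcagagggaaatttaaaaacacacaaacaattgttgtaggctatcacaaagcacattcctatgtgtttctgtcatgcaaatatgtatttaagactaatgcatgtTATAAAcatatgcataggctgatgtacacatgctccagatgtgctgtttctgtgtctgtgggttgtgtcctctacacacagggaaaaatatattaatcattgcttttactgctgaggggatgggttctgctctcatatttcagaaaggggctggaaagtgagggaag

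Type V collagen, which starts and limits the growth of type I fibrils, behaved differently from type I. Col5a1 was at 9.65, 9.68 and 11.0 CPM in GFP 1, 2 and 3, against 10.9 and 12.4 CPM in bulk 1 and 2. Its log2 change of -0.21 ± 0.21 was not called (edgeR adjusted p = 0.693), and sorted libraries differed 1.14-fold at most. Col5a2, which is the neighbour of Col3a1 on chromosome 1, was at 6.38, 6.46 and 2.36 CPM in GFP 1, 2 and 3, against 7.34 and 6.85 CPM in bulk 1 and 2. Col5a2 thus spread 2.74-fold among sorted libraries, against 54.4-fold for its neighbour. All sorted libraries were below bulk, but the change of -0.49 ± 0.42 was not called (edgeR adjusted p = 0.634).

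None of the remaining fibrillar genes was called by edgeR with the group term over all libraries and the filter on low counts. Col5a3, a further type V chain, had 14, 6 and 1 counts in GFP 1, 2 and 3, against 22 and 131 counts in bulk 1 and 2. Its log2 change of -3.08 ± 0.87 was not called with the group term (edgeR adjusted p = 0.105) and was with the block (1.88e-05). Without the block, Col5a3 was called lower with no filter on low counts (edgeR adjusted p = 1.04e-05) and by the DESeq2 Wald test (adjusted p = 0.0228). Col11a1, a chain of cartilage fibrils, had 1, 12 and 3 counts in GFP 1, 2 and 3, against 15 and 51 counts in bulk 1 and 2 (edgeR adjusted p = 0.257, and 0.00558 with the block). Without the block, Col11a1 was called lower with no filter on low counts and without GFP 2 (edgeR adjusted p = 0.0214 and 0.0398). In both genes the groups did not overlap. Col11a2, its partner chain in cartilage, was at 3.10, 3.48 and 8.29 CPM in GFP 1, 2 and 3, against 2.84 and 4.17 CPM in bulk 1 and 2, so GFP 3 alone stood above the rest. Col2a1 had 9 to 24 counts in all libraries and Col24a1 2 to 9.

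The main basement membrane genes were abundant, and Col4a1, Col4a2, Col4a5 and Col4a6 spread 1.18-fold to 1.28-fold among sorted and 1.14-fold to 1.42-fold among bulk libraries. Type IV chains come in fixed sets, alpha 1 with alpha 2 in nearly all basement membranes and alpha 5 with alpha 6 in skin. Col4a1 was at 45.3, 44.4 and 36.7 CPM in GFP 1, 2 and 3, against 30.5 and 38.9 CPM in bulk 1 and 2. Col4a2 was at 44.9, 38.0 and 38.9 CPM in GFP 1, 2 and 3, against 31.1 and 44.1 CPM in bulk 1 and 2. The groups overlapped in each of these genes, with log2 changes of 0.28 ± 0.20 and 0.11 ± 0.21 (edgeR adjusted p = 0.567 and 0.85). With the block Col4a1 was called higher, at 0.38 (0.0311), and with block and trend removal Col4a2 was too, at 0.49 (0.00331). Per length, the ratio of Col4a1 to Col4a2 was 0.982, 1.14 and 0.92 in GFP 1, 2 and 3, against 0.955 and 0.859 in bulk 1 and 2, so both chains were at like levels in every library.

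These genes lie head to head, which is why both windows are shown. Their RefSeq starts on chromosome 8 are 21 bases apart on opposite strands, and the windows share 78 bases. The Col4a1 window is chr8:11312777-11313076 on the minus strand and the Col4a2 window chr8:11312555-11312854 on the plus strand. A single GC box lies in the shared stretch and is printed once on each strand. The Col4a1 window holds 1 CCAAT box outside it, and the Col4a2 window a different CCAAT box and 2 further GC boxes. The RefSeq transcripts overlap between the starts. Strandedness of the counts is not stated, so reads from that overlap could not be told apart.
Col4a1: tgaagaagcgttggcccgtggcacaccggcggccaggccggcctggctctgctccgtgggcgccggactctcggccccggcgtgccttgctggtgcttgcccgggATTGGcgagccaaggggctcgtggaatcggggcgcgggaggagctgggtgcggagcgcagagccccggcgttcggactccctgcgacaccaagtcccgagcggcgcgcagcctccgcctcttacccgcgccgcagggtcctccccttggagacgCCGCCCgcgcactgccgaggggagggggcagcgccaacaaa
Col4a2: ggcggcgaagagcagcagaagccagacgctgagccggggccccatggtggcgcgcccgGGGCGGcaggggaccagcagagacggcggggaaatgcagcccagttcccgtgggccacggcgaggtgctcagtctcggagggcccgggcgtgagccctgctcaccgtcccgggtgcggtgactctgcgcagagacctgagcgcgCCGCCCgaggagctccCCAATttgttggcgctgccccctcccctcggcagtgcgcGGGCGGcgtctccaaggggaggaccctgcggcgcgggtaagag

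The X-linked pair Col4a5 and Col4a6 was the most abundant of type IV. Col4a5 was at 95.8, 114 and 94.1 CPM in GFP 1, 2 and 3, against 84.9 and 74.6 CPM in bulk 1 and 2. Col4a6 was at 68.2, 86.5 and 87.3 CPM in GFP 1, 2 and 3, against 60.2 and 72.9 CPM in bulk 1 and 2. Sorted libraries lay above bulk for Col4a5 and overlapped for Col4a6. Neither change, 0.35 ± 0.19 and 0.28 ± 0.20, was called (edgeR adjusted p = 0.439 and 0.568), whereas the block called Col4a5 (0.018) and the fit with the trend removed called Col4a6 (0.59, adjusted p = 0.0396). GFP 3, the library with Xist, was the highest of all libraries for Col4a6 and the lowest sorted library for Col4a5, and the part of X dosage was not tested. Their starts are 1343 bases apart and their windows share no base.

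Chains alpha 3 and alpha 4 of type IV, best known from kidney, were scarce. Col4a3 was at 0.887, 1.30 and 3.75 CPM in GFP 1, 2 and 3, against 1.24 and 1.68 CPM in bulk 1 and 2, and its neighbour Col4a4 at 2.99, 2.94 and 4.15 CPM against 3.58 and 4.04 CPM in bulk. GFP 3 was highest in both. Neither was called (edgeR adjusted p = 0.775 and 0.812), and the sign of each depended on the setting.

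Col7a1 and Col18a1 were the 2 most abundant members per length. Col18a1, whose product is a proteoglycan of basement membranes and the source of endostatin, had a mean over all libraries of 45.3 CPM per kb. Col7a1, the chain of the anchoring fibrils, had 33.7 CPM per kb, followed by Col16a1 (21.5), Col4a5 (14.2) and Col4a6 (11.3). Col1a1 came seventh at 7.32 CPM per kb, a mean that rests on GFP 1 and the bulk libraries.

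Sorted libraries held Col18a1 at 258, 285 and 315 CPM, against 172 and 238 CPM in bulk 1 and 2. Col7a1 was at 276, 334 and 400 CPM in GFP 1, 2 and 3, against 223 and 326 CPM in bulk 1 and 2. The groups did not overlap in Col18a1 and did in Col7a1. The log2 changes of 0.48 ± 0.23 and 0.30 ± 0.26 were not called (edgeR adjusted p = 0.363 and 0.64). The block called Col18a1 (0.42, adjusted p = 0.0141), and removal of the trend called both genes higher, at 0.74 and 0.65 (edgeR adjusted p = 0.0298 and 0.0436). Col15a1, a relative of Col18a1 found around vessels and muscle, had 42, 93 and 30 counts in GFP 1, 2 and 3, against 94 and 717 counts in bulk 1 and 2. In CPM it was lower in each sorted library than in bulk. The log2 change was -2.43 ± 0.72 and not called (edgeR adjusted p = 0.125), whereas it passed with the block (2.69e-12), without GFP 2 (0.0398), with no filter on low counts and by the DESeq2 Wald test.

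Type VI collagen makes beaded filaments from chains alpha 1, alpha 2 and alpha 3, or a chain that replaces alpha 3. Col6a1 was at 25.8, 24.9 and 45.9 CPM in GFP 1, 2 and 3, against 19.9 and 23.9 CPM in bulk 1 and 2. Col6a3 was at 24.6, 2.67 and 0.943 CPM in GFP 1, 2 and 3, against 29.0 and 12.9 CPM in bulk 1 and 2. So GFP 3 was the highest library for Col6a1 and the lowest for Col6a3. Col6a2, next to Col6a1 on chromosome 10, was at 4.72, 3.74 and 7.17 CPM in GFP 1, 2 and 3, against 4.10 and 6.18 CPM in bulk 1 and 2.

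Per length, the ratio of Col6a1 to Col6a3 was 2.58, 22.95 and 120 in GFP 1, 2 and 3, against 1.70 and 4.56 in bulk 1 and 2. That of Col6a1 to Col6a2 stayed between 6.54 and 7.96 in sorted and was 5.83 and 4.63 in bulk libraries. The alpha 3 gene thus parted from the other 2 in GFP 2 and GFP 3, with the same order of sorted libraries as type I and III genes. With the group term none of these was called (edgeR adjusted p = 0.439, 0.986 and 0.663 for Col6a1, Col6a2 and Col6a3). Col6a3 was called lower with the block (-1.18, edgeR adjusted p = 2.17e-10), without GFP 1 (-3.55, 0.0151) and with no filter on low counts (-1.17, 4.39e-04). Col6a1 was called higher with block and trend removal together (0.39, edgeR adjusted p = 0.0199). Chains that can replace alpha 3 were scarce: Col6a4 had 0 to 35 counts per library, Col6a6 5 to 37 and Col6a5 0 to 10.

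**Figure D4:**
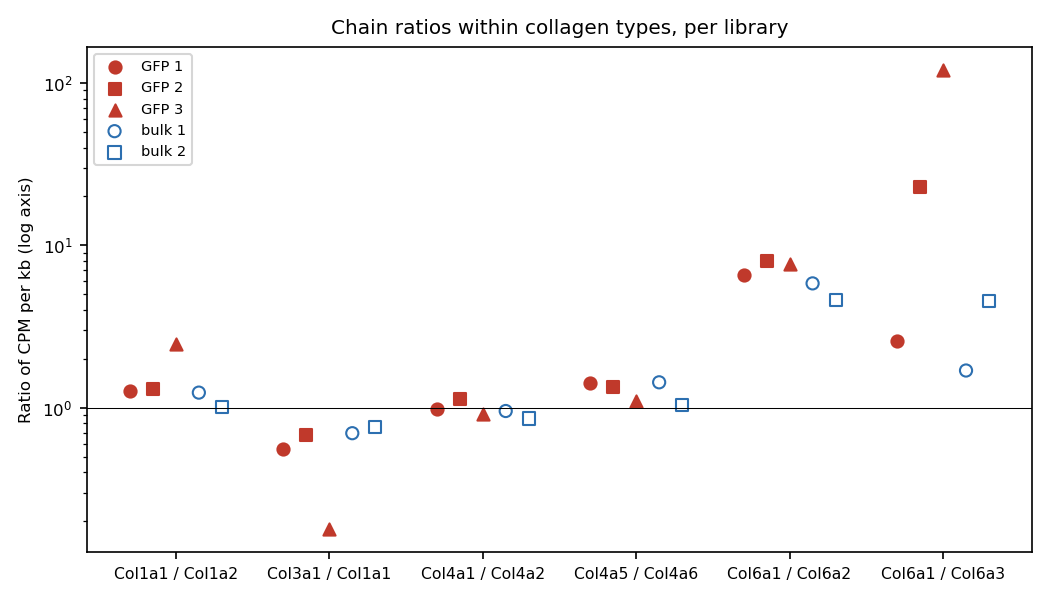
Ratio of CPM per kb between chains of one collagen type, or of types I and III, in each library on a log axis, with GFP-sorted libraries as filled red and bulk libraries as open blue symbols. Col4a1 to Col4a2 stays near 1 in all 5 libraries, while Col6a1 to Col6a3 runs from 1.70 in bulk 1 to 120 in GFP 3.

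The 4 genes Col1a1, Col1a2, Col3a1 and Col6a3, grouped after their values were seen, together made up 15.01%, 2.79% and 0.544% of collagen CPM in GFP 1, 2 and 3, against 20.1% and 12.25% in bulk 1 and 2. The 9 abundant genes Col4a1, Col4a2, Col4a5, Col4a6, Col7a1, Col12a1, Col16a1, Col18a1 and Col23a1, grouped likewise, made up 79.2%, 91.1% and 91.4% in sorted, against 72.5% and 80.0% in bulk libraries. These shares describe the libraries and were not tested.

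Among collagens that sit on fibrils or bridge them to other matrix (FACIT), Col16a1 was the most abundant. Col16a1, whose product is found near the junction of epidermis and dermis, was at 114, 129 and 141 CPM in GFP 1, 2 and 3, against 76.8 and 100.2 CPM in bulk 1 and 2. All sorted libraries lay above bulk. The log2 change of 0.53 ± 0.21 was not called (edgeR adjusted p = 0.26), and was with the block (0.00468) or with the trend removed (0.0179). Col12a1, which binds type I fibrils, was at 32.2, 46.6 and 46.3 CPM in GFP 1, 2 and 3, against 31.5 and 47.9 CPM in bulk 1 and 2, a log2 change of 0.07 ± 0.26 that was not called (edgeR adjusted p = 0.922). With block and trend removal together it was 0.59 and called higher (1.89e-04).

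Col14a1, a relative of Col12a1, was low, with 13, 22 and 78 counts in GFP 1, 2 and 3, against 43 and 264 counts in bulk 1 and 2. The groups overlapped. The gene was called lower with the block and not with the group term (edgeR adjusted p = 1.25e-10 and 0.273). Omission of the filter on low counts, without the block, called it lower too (edgeR adjusted p = 0.00387). Col20a1 was at 3.48, 4.71 and 6.92 CPM in GFP 1, 2 and 3, against 5.02 and 6.82 CPM in bulk 1 and 2. The block called Col20a1 lower (-0.53, adjusted p = 0.0158) and the group term did not (0.788). Col9a3, a cartilage chain, was at 2.52, 2.16 and 2.30 CPM in GFP 1, 2 and 3, against 1.44 and 1.64 CPM in bulk 1 and 2, and was called higher with the block (0.0444, against 0.413).

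Col23a1, like Col13a1 a transmembrane collagen, went the other way. It was at 48.3, 49.0 and 72.9 CPM in GFP 1, 2 and 3, against 31.3 and 35.2 CPM in bulk 1 and 2. The groups did not overlap, and its log2 change of 0.77 ± 0.24 was the largest above 0 among the members, yet it was not called (edgeR adjusted p = 0.14). The block (0.55, adjusted p = 8.78e-04), removal of the trend (1.03, 0.0318) and omission of the filter on low counts called it higher.

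Network-forming type VIII genes, known from vessels and cornea, were low in both groups, and neither was called with the group term (edgeR adjusted p = 0.655 and 0.701 for Col8a1 and Col8a2). Col8a1 was called higher with block and trend removal together (0.53, edgeR adjusted p = 0.00966). Col8a1 was at 6.54, 7.25 and 5.54 CPM in GFP 1, 2 and 3, against 5.75 and 4.91 CPM in bulk 1 and 2. Col8a2 was at 3.88, 4.86 and 7.13 CPM in GFP 1, 2 and 3, against 4.68 and 3.88 CPM in bulk 1 and 2. The groups overlapped in both. Col26a1 had 0, 5 and 4 counts in sorted and 9 and 36 counts in bulk libraries. It was called lower with the block and not with the group term (edgeR adjusted p = 0.00449 and 0.205). Omission of the filter on low counts, without the block, called it lower too (edgeR adjusted p = 0.0313).

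The 8 members that did not pass the filter were Col24a1, Col6a5, Col9a1, Col19a1, Col22a1, Col10a1, Col25a1 and Col28a1. None had more than 10 counts in a library, and Col22a1 had no count in any. Of the 35 tested members, 7 had all sorted libraries above bulk, beside 14.6% of all genes tested, and 7 had all below, beside 18.5%. The groups overlapped in 21. Those above were Col4a5, Col6a1, Col9a2, Col9a3, Col16a1, Col18a1 and Col23a1, and those below Col5a2, Col5a3, Col11a1, Col13a1, Col15a1, Col26a1 and Col27a1.

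Genes that make, bind or cut collagen gave 5 calls. Of 22 tested genes for chain modification and folding, 1 was called higher and none lower. This was Serpinh1, the chaperone of the collagen helix known as HSP47, at 155, 146 and 144 CPM in GFP 1, 2 and 3, against 86.0 and 84.6 CPM in bulk 1 and 2. Its log2 change was 0.80 ± 0.18 (edgeR adjusted p = 0.0413), and it was not called with library size alone or without any one of GFP 1, GFP 2, bulk 1 and bulk 2 (edgeR adjusted p from 0.0714 to 0.389). The list median was 0.15, against 0.05 over all genes, with 8 of 22 called higher and 3 lower with the block, beside 16.4% and 19.7% of all genes. Block and trend removal together called 10 of 22 higher and 4 lower, beside 16.4% of all genes in each direction. Genes named below without a call were chosen for their known roles. The prolyl hydroxylase gene P4ha1 was at 59.1, 68.1 and 78.1 CPM in GFP 1, 2 and 3, against 41.9 and 44.1 CPM in bulk 1 and 2, and was not called (edgeR adjusted p = 0.115). It was called higher with the block (0.56, edgeR adjusted p = 5.77e-04) and with the trend removed (0.65, 0.0481).

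None of 14 processing and crosslinking genes was called, with a list median of -0.50. With the block 4 were called lower and 2 higher, beside 19.7% and 16.4% of all genes. Block and trend removal together called 3 lower and 3 higher, beside 16.4% of all genes in each direction. The crosslinking enzyme gene Lox was at 0.279, 0.136 and 0.0429 CPM in GFP 1, 2 and 3, against 0.585 and 0.556 CPM in bulk 1 and 2 (edgeR adjusted p = 0.212, and 0.00811 with the block, lower). Bmp1, which trims procollagen, was at 82.7, 91.0 and 72.3 CPM against 57.2 and 80.8 CPM in bulk (edgeR adjusted p = 0.637, and 0.0389 with the block, higher).

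Of 9 collagen receptor genes tested, Ddr2 was called lower and none higher, with a list median of 0.22. With the block 2 were called lower and 1 higher, beside 19.7% and 16.4% of all genes. With block and trend removal together 1 was called lower and 5 higher, beside 16.4% of all genes in each direction. Ddr2, a kinase receptor for fibrillar collagen, was at 11.2, 11.4 and 15.02 CPM in GFP 1, 2 and 3, against 31.3 and 25.3 CPM in bulk 1 and 2, a log2 change of -1.18 ± 0.22 (edgeR adjusted p = 0.021). It was not called without GFP 1, GFP 2, bulk 1 or bulk 2 (edgeR adjusted p from 0.0663 to 0.174). Ddr1, the related receptor of epithelia, was at 422, 454 and 372 CPM against 358 and 374 CPM in bulk, and was not called (edgeR adjusted p = 0.724).

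Of 11 collagen-cutting enzymes and their inhibitors, Mmp9 and Fap were called lower and none higher with the group term. The list median was 0.20. With the block 3 were called lower and 5 higher, beside 19.7% and 16.4% of all genes. With block and trend removal together 3 were called lower and 6 higher, beside 16.4% of all genes in each direction. Mmp9, a gelatinase, was at 0.342, 0.0754 and 0.311 CPM in GFP 1, 2 and 3, against 4.30 and 4.25 CPM in bulk 1 and 2 (log2 change -4.11 ± 0.54, edgeR adjusted p = 0.00391). Fap, a protease of activated fibroblasts that is also in the fibroblast list, had 17, 8 and 22 counts in GFP 1, 2 and 3, against 85 and 259 counts in bulk 1 and 2 (log2 change -3.28 ± 0.45, edgeR adjusted p = 0.00495). Without bulk 2 Fap was not called (0.0576). Mmp14, a membrane collagenase, was at 136, 138 and 112 CPM against 108 and 115 CPM in bulk (edgeR adjusted p = 0.659, and 0.0164 with block and trend removal, higher).

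Of 16 partners of type IV collagen in basement membranes, Smoc2 was called higher and none lower with the group term. The list median was -0.09. With the block 4 were called lower and 1 higher, beside 19.7% and 16.4% of all genes. With block and trend removal together 3 were called lower and 8 higher, beside 16.4% of all genes in each direction. Smoc2, a calcium-binding matrix protein, was at 254, 240 and 227 CPM in GFP 1, 2 and 3, against 140.5 and 124 CPM in bulk 1 and 2 (log2 change 0.86 ± 0.19, edgeR adjusted p = 0.0418). Like Serpinh1, it was not called with library size alone or without any one of GFP 1, GFP 2, bulk 1 and bulk 2 (edgeR adjusted p from 0.0612 to 0.47). The part of other cell types in the falls of Ddr2, Mmp9 and Fap was not tested.

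**Figure D5:**
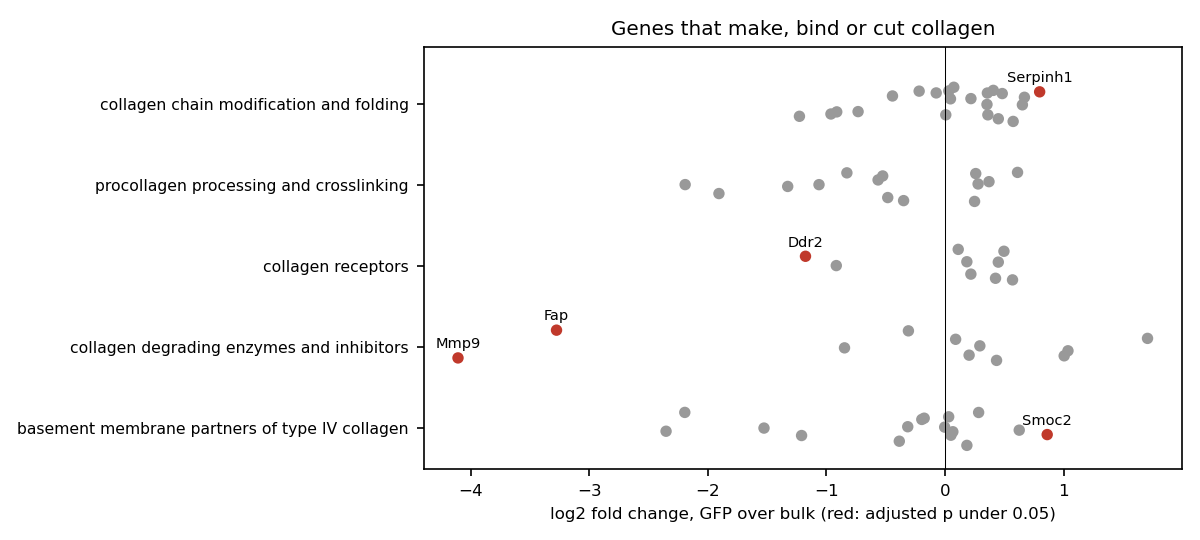
Log2 fold change of GFP-sorted over bulk libraries for the tested genes of 5 lists (vertical scatter within a list has no meaning), red where called by edgeR. Serpinh1 and Smoc2 are called higher, and Ddr2, Fap and Mmp9 lower.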

How the data were processed

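The authors deposited a table of raw gene counts with Ensembl IDs, in which every library has its own column. STAR and GRCm39 appear in the submitters' processing notes. Which counting tool, annotation and strand setting made the counts is not given in the sources used here. Symbols were matched by gene ID without version in a table of mouse gene names (52073 of 56691 matched). Lengths and GC content are those of the longest GENCODE M21 transcript, of the older build GRCm38.

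Genes were filtered with filterByExpr (minimum count 10, minimum total count 15), which left 18583, and tested with edgeR 4.0.16 in R 4.3.3 (TMM, group term, quasi-likelihood test, two-sided, Benjamini-Hochberg over all genes, threshold 0.05, 3 residual degrees of freedom). SE is the log2 change divided by the root of the F statistic. Fold changes of genes with few counts depend on edgeR's prior count. The fit was tested on simulated data. Levels are CPM with TMM-adjusted library sizes. Members were described singly with a mean of at least 1 CPM in either group, or when called with or without the block. The rule, members and lists were chosen with earlier results of these data known. Alternatives were DESeq2 1.42.0 size factors and Wald test, limma 3.58.1 voom, library size alone, 2 other filters, the title number as block, a loess trend on length and GC (span 0.3) as offset, both together, and leaving out each library. The numbers were taken to mark animals from the shared titles, although genotype labels differ within a number. Across 18583 genes, the difference of GFP 1 and GFP 2 correlated with that of bulk 1 and bulk 2 (Pearson r = 0.474, genes not being independent replicates). Promoter windows came from RefSeq, with 34 of 43 members matched.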

Additional observations from a re-analysis of the deposited data

How the results depend on the processing

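The counts called lower and higher over all genes were 955 and 27. They were 3652 and 3040 with the replicate block, 2968 and 2974 with block and length and GC trend removed, and 1660 and 258 with no filter on low counts. Calls higher numbered 10 with library size alone, 111 with the trend removed and 188 by the DESeq2 Wald test. Leaving out 1 library gave 479 to 1109 lower and 1 to 96 higher. Collagen genes called lower were 2, against 12 with the replicate block, 11 with block and trend removed, 11 with no filter, 1 with a minimum of 1 CPM (which left out Col13a1), 4 by the DESeq2 Wald test and 1 to 5 without 1 library. Without GFP 1 there were 5 (14.3% of members tested), where 748 of all genes (4.13%) were called lower. Without GFP 2 there were 4 (11.4% of members tested), where 715 of all genes were called lower. With the minimum of 1 CPM, 674 of all genes were called lower, and 3.85% of the members tested. The share of all genes called was not computed without GFP 2 or with the minimum of 1 CPM. Those member shares thus have no share of all genes beside them. Collagen genes called higher were 0, against 6 with the replicate block, 5 with the trend removed, 12 with both, 1 with no filter, and 0 without any 1 library. The cause was not tested. With the trend removed the median change of the members was 0.38, against 0.07 over all genes.

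Of 429 alternative values of 31 collagen genes over 14 settings, 346 kept direction and side of the threshold, 59 newly passed it and 1 no longer did. The other 23, in members that were not called, changed sign. With the trend removed Col5a1 was at 0.16 and Col4a4 at 0.16. With block and trend removed Col5a1 was at 0.18, Col5a2 at 0.18, Col4a4 at 0.17 and Col6a2 at -0.043. With the replicate block Col11a2 was at -0.074, Col4a3 at -0.42, Col6a2 at -0.27 and Col12a1 at -0.0044. With library size alone Col4a2 was at -0.014, Col6a2 at -0.081 and Col12a1 at -0.044. Col6a2 was at -0.0069 with a minimum of 1 CPM and at -0.019 by limma-voom. Without 1 library in turn, Col11a2 ranged over -0.10 to 0.79, Col4a2 over -0.12 to 0.37, Col4a3 over -0.43 to 0.79, Col6a2 over -0.29 to 0.34 and Col12a1 over -0.20 to 0.39. At 56829330 to 105887450 counts a library, the 8 members below the filter had at most 10 counts in any library. With no filter 7 of them were tested and none was called, and Col22a1, without a count, could not be compared.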
